A study of Mus musculus with 70 samples.

Results

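Fkbp5, Tsc22d3, Sgk1, Zbtb16, Errfi1, Klf9, Pdk4 and Ddit4 are 8 genes that cells transcribe more when glucocorticoid hormone is present. They were taken by gene symbol from a table of 24423 genes counted in mouse lung, and all 8 were present and passed the filter on low counts in every comparison. The data were 70 bulk RNA sequencing libraries from pieces of whole lung of male mice of the 129S-Slc26a4tm1Erg/AjgJ line, which were about 3 months old when exposure began. Another label spells the name of this line differently, and which spelling is right was not checked. Homozygous wildtype (Pds+/+) and homozygous knockout (Pds-/-) mice, the latter lacking a working Slc26a4 gene for the anion exchanger pendrin, breathed either air or crystalline silica dust in a whole-body chamber. The dust was Min-U-Sil5 at 15 mg/m3, given for 6 hours a day on 4 days, and lungs were collected 1 day, 3 months or 9 months later. This gave 12 groups: wildtype air, wildtype silica, knockout air and knockout silica had 6 libraries each at 1 day and at 3 months. At 9 months both wildtype groups had 5 and both knockout groups had 6. The knockout is a germline one that all cells carry, and the labels name no treatment with a hormone.

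Glucocorticoids (corticosterone in the mouse) are adrenal steroids that enter cells and bind the glucocorticoid receptor, Nr3c1, which chaperones hold ready in the cytosol. The bound receptor moves to the nucleus, binds glucocorticoid response elements in DNA and switches on genes that damp inflammation and shift fuel use, while inflammatory genes are repressed. Corticosterone rises and falls each day and with handling or stress, and in the lung the hormone is known for maturing the alveoli and for restraining inflammation. The labels give a 12-hour light-dark cycle and no hour of collection, and no hormone level was measured here.

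Library totals ran from 802478 counts in an air-exposed knockout at 1 day to 5596318 in an air-exposed wildtype at 3 months. Alveolar type 2 cell markers were high in every lung, with a summed level between 11083 and 15084 CPM, the read count scaled to a common library size with the normalisation factors of all 70 libraries. A set of 5 libraries stood apart from the others of their groups, and the results that moved most with them are given with and without them. These were replicate 3 of knockout silica at 1 day, replicate 3 of knockout silica at 3 months, replicate 5 of wildtype air at 9 months, and the libraries labelled replicates 4 and 5 of knockout air at 9 months. In the 3 air-exposed ones the macrophage gene Chil3 reached 7844, 6432 and 2920 CPM. Slc26a4 was lower in every knockout library than in every wildtype library in 5 of the 6 pairs of groups. In the remaining pair, air at 9 months, the libraries labelled knockout replicates 4 and 5 had 50.5 and 16.4 CPM against 6.30 CPM in the lowest wildtype. Knockout lungs still gave Slc26a4 reads, and the deleted stretch was not counted apart, so this is a partial check of the labels.

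The 8 genes do different jobs. Fkbp5 is a co-chaperone of the receptor that lowers its affinity for hormone, and it lies at chr17:28399094-28517527 on the minus strand (GRCm38, GENCODE M21). Tsc22d3 (chrX:140539528-140600659, minus strand), also called GILZ, is a leucine zipper protein that restrains inflammatory transcription factors. Sgk1 (chr10:21882184-21999903, plus strand) is a kinase that keeps the epithelial sodium channel at the cell surface. Zbtb16 (chr9:48654297-48836222, minus strand) and Klf9 (chr19:23141226-23168134, plus strand) are zinc finger transcription factors. Errfi1 (chr4:150853919-150868892, plus strand) is a feedback inhibitor of the epidermal growth factor receptor. Pdk4 (chr6:5483351-5496309, minus strand) turns off pyruvate dehydrogenase and spares glucose, and Ddit4 (chr10:59949669-59951834, minus strand) inhibits the growth kinase complex mTORC1. Fkbp5 overlaps annotated genes on both strands, Errfi1 one on the opposite strand and Klf9 one on the same strand. Reads from a gene and a neighbour on the same strand cannot be told apart where they overlap. The strand setting of the counting is not given in the sources used here, so the same holds for the opposite strand.

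Per kilobase of exon, the median level over the 70 libraries was highest for Errfi1 (45.8 CPM per kb), followed by Tsc22d3 (32.4), Klf9 (31.0), Sgk1 (26.8), Zbtb16 (13.8), Ddit4 (9.80), Pdk4 (4.10) and Fkbp5 (2.05). The lower 3 rested on few reads: the smallest raw count in one library was 5 for Ddit4, 14 for Pdk4 and 16 for Fkbp5. Over all lungs Zbtb16 had the widest range, from 19.3 to 402 CPM, and Sgk1 ran from 99.7 to 295 CPM.

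Start sites of 7 members, all but Zbtb16, were held in the RefSeq promoter table (build GRCm38.p6), as 15 windows of 300 bases that run from 250 bases before a start site to 50 after it. The windows were searched on both strands for the glucocorticoid response element palindrome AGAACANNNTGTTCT, its half-site TGTTCT, the clock E-box CACGTG and the cyclic AMP element TGACGTCA. The palindrome was found in 3 of 32851 windows in the whole table (0.00913%), and 1 of these belonged to a member, Sgk1. The half-site, which the palindrome contains on each strand, was in 19% of all windows, the E-box in 7.15% and the cyclic AMP element in 1.79%. The 3 windows below show the member with the palindrome, a member with a half-site alone and a member with an E-box. Capitals mark the match, which began 189 bases before the start site in Sgk1 (chr10:21993640-21993939, plus strand), 185 before it in Tsc22d3 (chrX:140600473-140600772, minus strand) and 169 before it in Fkbp5 (chr17:28486100-28486399, minus strand).
Sgk1: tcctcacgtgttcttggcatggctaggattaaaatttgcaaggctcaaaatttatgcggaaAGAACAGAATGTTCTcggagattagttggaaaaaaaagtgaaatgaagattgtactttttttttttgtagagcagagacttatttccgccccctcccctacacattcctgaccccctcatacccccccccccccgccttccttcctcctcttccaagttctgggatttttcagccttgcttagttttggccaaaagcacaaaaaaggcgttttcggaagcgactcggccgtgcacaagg
Tsc22d3: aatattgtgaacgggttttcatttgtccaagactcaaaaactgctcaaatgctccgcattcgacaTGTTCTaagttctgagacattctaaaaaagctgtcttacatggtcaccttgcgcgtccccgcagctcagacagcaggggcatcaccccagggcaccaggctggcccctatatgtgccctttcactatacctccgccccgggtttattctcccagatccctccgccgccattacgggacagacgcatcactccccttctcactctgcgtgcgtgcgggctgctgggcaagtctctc
Fkbp5: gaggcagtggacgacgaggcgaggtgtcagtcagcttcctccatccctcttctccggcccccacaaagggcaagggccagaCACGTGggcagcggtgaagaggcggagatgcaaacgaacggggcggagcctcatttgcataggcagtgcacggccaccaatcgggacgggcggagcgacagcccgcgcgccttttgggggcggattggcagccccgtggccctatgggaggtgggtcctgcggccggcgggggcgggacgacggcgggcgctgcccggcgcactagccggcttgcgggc
The same Sgk1 window also held an E-box 246 bases before the start and a further half-site 242 before it, which overlaps that E-box, and 1 of the 2 Errfi1 windows held the cyclic AMP element 51 bases before the start. The single windows of Klf9, Pdk4 and Ddit4 held none of these letter strings. A match describes the sequence and does not show that a factor binds there.

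**Figure D1:**
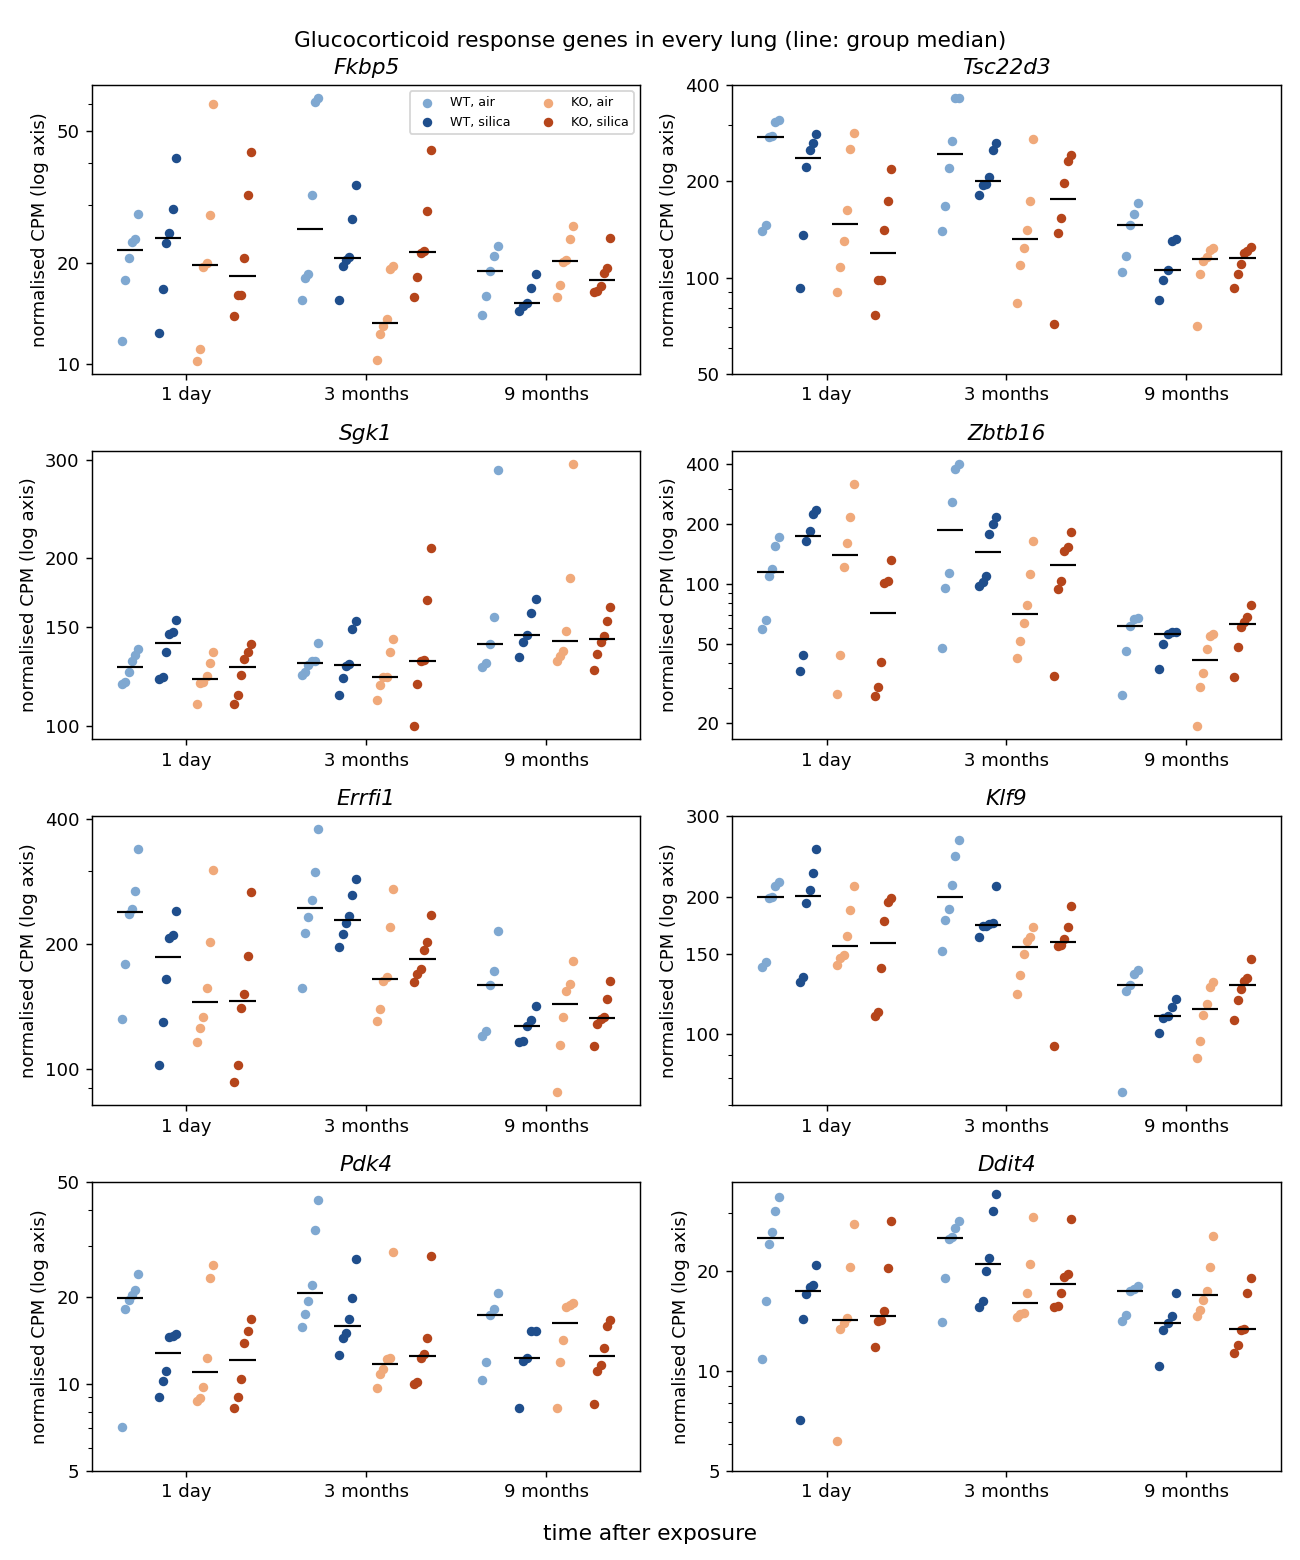
Normalised CPM (log axis) of each of the 8 genes in every lung, by time after exposure; each point is 1 mouse, colour gives genotype and exposure, and the line is the group median. Within most groups at 1 day and 3 months the points of Zbtb16, Fkbp5 and Tsc22d3 spread several-fold, and at 9 months they lie closer together.

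The first comparison asked whether silica dust moved these genes. In wildtype lungs at 1 day none of the 8 passed an adjusted p of 0.05, where 2.37% of all 12558 genes tested did. Knockout lungs at 1 day likewise gave 0 of 8, beside 1.93% of all genes. At 3 months the counts were 0 of 8 in wildtype (2.96% of all genes) and 0 of 8 in knockout (4.8%). At 9 months, when few genes responded at all, they were 0 of 8 in wildtype (0.0234%) and 0 of 8 in knockout (0.179%). At an unadjusted p under 0.05 the members counted were 2, 1, 0, 1, 2 and 2 of 8 in the same order, beside 13.6%, 11.3%, 13.5%, 17.1%, 6.82% and 10.5% of all genes. DESeq2 and voom also called none of the 8 in these 6 comparisons. Each library is 1 mouse with its own animal number, so the p-values measure the spread between mice. Recruited macrophage markers rose with silica for 5 of 5 tested in each genotype at 1 day, and for 5 of 6 at 3 months. In wildtypes at 3 months 4 of 9 heart muscle markers and 2 of 4 fat cell markers fell. In bulk lung, fewer cells of a type and less RNA per cell cannot be told apart, and the part of these shifts in the members' values was not tested.

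Fkbp5, often used as a readout of receptor activity, stood at 11.7, 21.9 and 28.1 CPM (lowest, median, highest) in air-exposed wildtypes at 1 day and at 12.4, 23.8 and 41.5 CPM after silica. The groups overlapped, and the log2 fold change was 0.24 (SE 0.29; 95% interval -0.33 to 0.80). Tsc22d3 stood at 140, 276 and 311 CPM in the same air group and at 92.8, 236 and 281 CPM after silica. Its log2 fold change was -0.21 (SE 0.26), again with overlap. Pdk4 and Ddit4 had the lowest p-values in that comparison. Pdk4 was at 7.08, 19.8 and 23.9 CPM in air and at 9.02, 12.8 and 14.9 CPM after silica, a log2 fold change of -0.54 (SE 0.25, adjusted p 0.326). Ddit4 gave -0.52 (SE 0.24, adjusted p 0.339). Of the 6 silica-exposed wildtypes, all lay within the air group's range for Pdk4.

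In knockouts at 1 day the widest difference was that of Zbtb16. Air-exposed knockouts had 28.1, 140 and 318 CPM and silica-exposed ones 27.3, 71.1 and 132 CPM. The log2 fold change was -0.94 (SE 0.45, adjusted p 0.431), and the test of whether it differed from the wildtype value of 0.40 (SE 0.41) gave -1.33 (SE 0.61, adjusted p 0.861). At 3 months Fkbp5 pointed opposite ways in the 2 genotypes, with -0.54 (SE 0.29, adjusted p 0.425) in wildtype and 0.68 (SE 0.33, adjusted p 0.283) in knockout. The interaction was 1.23 (SE 0.44, adjusted p 0.527), and no gene of the 12647 tested passed in that interaction. Across the 3 times the interaction of genotype and silica called 0 of 8 members at each, where 0% of all genes were called. Members at an unadjusted p under 0.05 were 1, 1 and 0 of 8, beside 5.7%, 7.67% and 7.02% of all genes.

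At 9 months all 8 silica differences were below 0 in wildtype lungs, between -0.35 for Tsc22d3 (SE 0.15, adjusted p 0.655) and -0.08 for Zbtb16. Air-exposed wildtypes had Tsc22d3 at 104, 117, 146, 158 and 171 CPM and silica-exposed ones at 85.1, 98.6, 105, 130 and 132 CPM. The silica values reached lower and the air values higher, with overlap in the middle. Without the libraries that stand apart, which at 9 months are all air-exposed, Tsc22d3 was -0.45 (adjusted p 0.0436) and was the single member called, where 1.64% of 12839 genes were. The other members were then between -0.42 for Errfi1 (adjusted p 0.0555) and 0.10 for Sgk1, which had been -0.19, so that 7 of 8 lay below 0. Recruited macrophage markers rose for 5 of 6 in that comparison, and their part was not tested. In knockouts at 9 months the members lay between -0.34 for Ddit4 and 0.51 for Zbtb16 (adjusted p 0.417), with 5 of 8 below 0. In the fit without the libraries that stand apart Ddit4 was -0.12, Zbtb16 0.25 and Sgk1 0.09 in place of -0.25. Pdk4 was then the lowest, at -0.33, and again 5 of 8 lay below 0.

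The silica effect was also compared between times. None of the 8 members passed for 3 months against 1 day (0.0755% of 13252 genes did), for 9 months against 3 months (0.732%) or for 9 months against 1 day (0.868%). Members at an unadjusted p under 0.05 were 0, 1 and 1 of 8, beside 6.5%, 13.6% and 11.1% of all genes. The 1 member in both later comparisons was Sgk1, at -0.33 (SE 0.14, adjusted p 0.281) for 9 months against 3 months and -0.31 (adjusted p 0.409) for 9 months against 1 day. Both values rested on the libraries that stand apart: without them Sgk1 was 0.05 and -0.02, and the shares of all genes called were 0% and 0.392%.

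**Figure D2:**
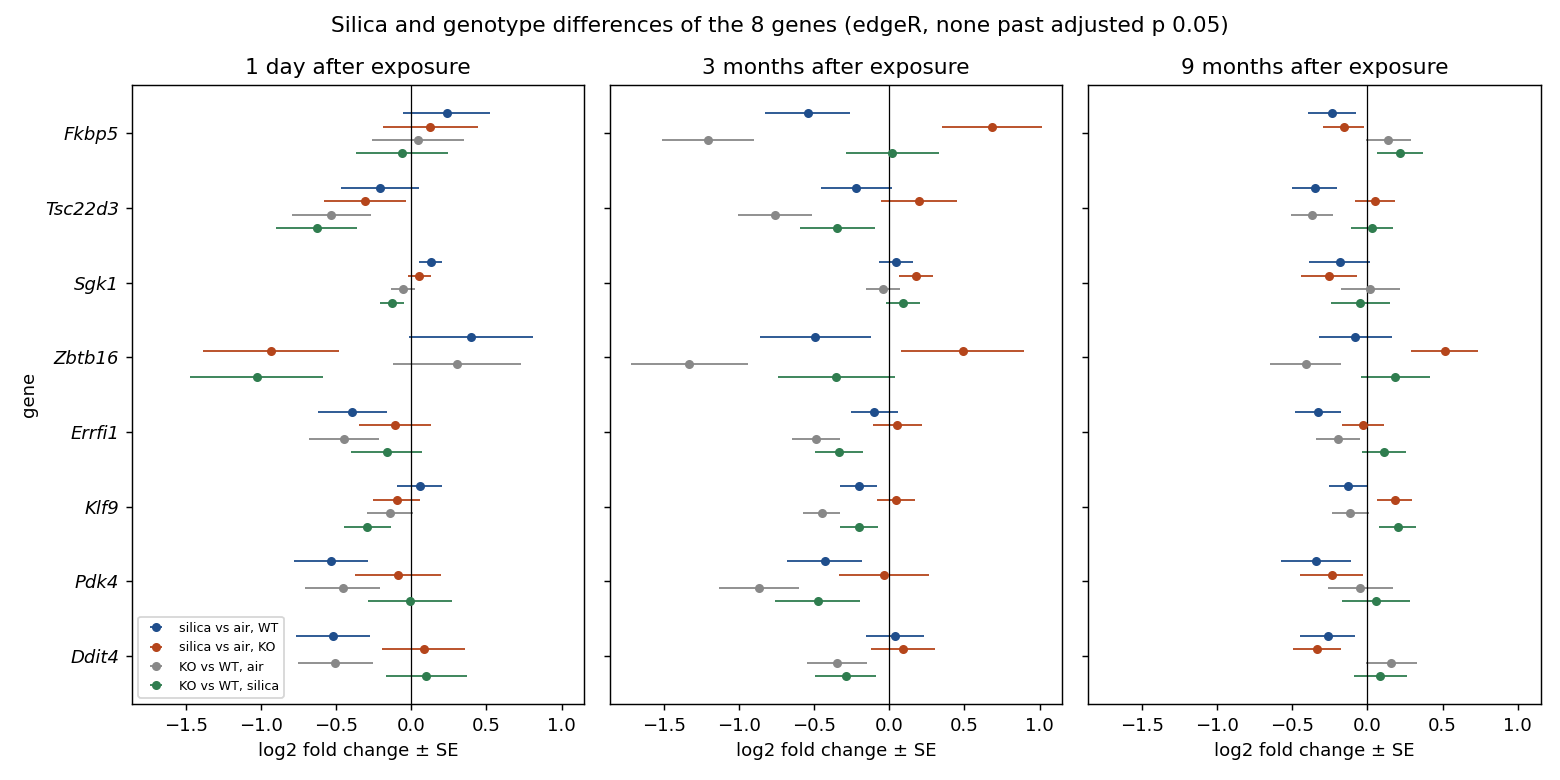
Log2 fold change ± SE (horizontal axis) of each gene for silica against air in wildtype (WT) and knockout (KO) lungs and for knockout against wildtype in air and in silica, in 1 panel per time. No point passed an adjusted p of 0.05, and the values farthest from 0 are those of Fkbp5 (-1.21) and Zbtb16 (-1.33) for knockout against wildtype in air at 3 months.

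The second comparison asked whether loss of Slc26a4 moved these genes. At 1 day 0 of 8 members passed in air (0.0478% of all genes did) and 0 of 8 in silica (0.00796%). At 3 months 0 of 8 passed in air (0.142%) and 0 of 8 in silica (0.174%), and at 9 months 0 of 8 in air (0.0156%) and 0 of 8 in silica (0%). At an unadjusted p under 0.05 the members counted were 0, 2, 6, 1, 1 and 0 of 8, beside 10%, 7.64%, 10.8%, 10.3%, 10% and 3.99% of all genes. DESeq2 called none of the 8 in any of the 6, and voom called 1, Klf9 in air at 3 months.

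Air-exposed lungs at 3 months gave the widest genotype differences, with all 8 members below 0 and a median log2 fold change of -0.62 against 0.00 over all genes. Fkbp5 was 15.5, 18.1, 18.5, 32.1, 61.1 and 62.7 CPM in the 6 wildtypes and 10.2, 12.3, 13.0, 13.6, 19.3 and 19.7 CPM in the 6 knockouts. Replicates 4 and 5 of the wildtypes stood above the rest, and the groups overlapped between 15.5 and 19.7 CPM. The log2 fold change was -1.21 (SE 0.31, adjusted p 0.0826). Zbtb16 was 48.0, 95.7, 114, 257, 376 and 402 CPM in the wildtypes and 42.8, 51.8, 63.5, 78.5, 112 and 164 CPM in the knockouts. The same wildtype replicates 4 and 5 were the highest, and the log2 fold change was -1.33 (SE 0.39, adjusted p 0.145). Tsc22d3 was 140, 168, 220, 268, 364 and 365 CPM in the wildtypes and 83.4, 109, 124, 140, 173 and 270 CPM in the knockouts, a log2 fold change of -0.76 (SE 0.24, adjusted p 0.214). Replicate 4 was the highest of the knockouts for 7 of the 8 genes, all but Klf9, and replicate 1 was the lowest of the wildtypes for 6 of the 8.

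Klf9 differed by -0.45 (SE 0.12, adjusted p 0.121), Pdk4 by -0.87 (SE 0.26, adjusted p 0.172), Errfi1 by -0.49 (SE 0.16, adjusted p 0.217) and Ddit4 by -0.35 (SE 0.20, adjusted p 0.562). Sgk1 lay at 123, 129 and 140 CPM in wildtypes and at 111, 122 and 143 CPM in knockouts, a log2 fold change of -0.04 (SE 0.11; 95% interval -0.26 to 0.18). The call depended on the libraries used. Without replicate 3 of knockout silica, which shares the estimate of the spread, 3 members passed: Fkbp5 at -1.20 (adjusted p 0.0386), Zbtb16 at -1.33 (0.0487) and Klf9 at -0.44 (0.0196). Calls over all genes rose as well in that fit, from 18 of 12647 to 113 of 12691 (0.89%). Without wildtype air replicate 1 the same 3 passed, where 0.431% of all genes did. Without wildtype air replicate 2 Fkbp5 alone passed (adjusted p 0.0480; 0.157% of all genes), and without knockout air replicate 4 Pdk4 alone did (adjusted p 0.0458; 0.282%). Per1, a clock gene that glucocorticoids also induce, was -0.81 in this contrast (SE 0.26, adjusted p 0.205), and Nr3c1 was 0.08 (SE 0.06, adjusted p 0.652). Fat cell markers summed to between 39.2 and 239 CPM in these wildtypes and to between 26.6 and 54.98 CPM in these knockouts, and heart muscle markers to between 460 and 1388 CPM and between 283 and 869 CPM. Their part in the result was not tested.

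In silica-exposed lungs at 3 months the same contrast was 0.02 for Fkbp5 (SE 0.31), -0.35 for Zbtb16 (SE 0.39) and -0.35 for Tsc22d3 (SE 0.25). At 1 day in silica, Zbtb16 was 36.7, 174 and 236 CPM in wildtypes and 27.3, 71.1 and 132 CPM in knockouts, a log2 fold change of -1.03 (SE 0.44, adjusted p 0.612). The knockouts reached lower and the wildtypes higher, with overlap between 36.7 and 132 CPM. At 9 months the members farthest from 0 were Zbtb16 in air (-0.41, SE 0.24) and Fkbp5 in silica (0.22, SE 0.15). Without the libraries that stand apart Zbtb16 in air was -0.33, Tsc22d3 was the farthest at -0.37, and Ddit4 was -0.10 in place of 0.16.

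The third comparison was between times, over both genotypes. Lungs at 3 months did not differ detectably from lungs at 1 day for any member: 0 of 8 passed in air (0.113% of all genes did) and 0 of 8 in silica (4.38%). At an unadjusted p under 0.05 the members counted were 0 and 2 of 8, beside 8.05% and 19.1% of all genes. Errfi1 had the lowest adjusted p of these, at 0.35 in silica (SE 0.15, adjusted p 0.164), and without replicate 4 of knockout silica at 1 day it was 0.46 (adjusted p 0.0472). The 4.38% comes from the fit with every library, and the share of all genes called in the smaller fit is not given here. From 3 to 9 months, in contrast, several members fell. In air 1 member rose and 4 fell, where 29.2% of all genes were called (15.7% higher and 13.5% lower). In silica 5 fell and none rose, where 11.6% were called (5.46% higher and 6.17% lower). At an unadjusted p under 0.05 the members counted were 5 of 8 in each, beside 38.8% and 24.4% of all genes. The median of the 8 members was -0.37 in air and -0.54 in silica, against 0.02 and 0.01 over all genes. Mice at 9 months after exposure were also older, and time, age and any batch of collection or sequencing cannot be told apart.

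Zbtb16 fell the most. It stood at 42.8, 104 and 402 CPM (lowest, median, highest) in the 12 air-exposed lungs at 3 months and at 19.3, 47.1 and 67.6 CPM in the 11 at 9 months. All 11 lay below the 3-month median and 4 lay below the lowest 3-month lung. The log2 fold change was -1.49 (SE 0.32, adjusted p 2.10e-04). After silica it went from 34.7, 128 and 217 CPM to 34.0, 57.3 and 78.3 CPM, a log2 fold change of -1.27 (SE 0.32, adjusted p 0.00403). Klf9 went from 122, 167 and 267 CPM to 74.4, 124 and 138 CPM in air, and all 11 later lungs lay below the 3-month median (log2 fold change -0.59, SE 0.11, adjusted p 1.44e-05). In silica it fell by 0.48 on the log2 scale (SE 0.11, adjusted p 0.00131).

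Errfi1 in silica-exposed lungs was 163, 207 and 287 CPM at 3 months and 114, 132 and 163 CPM at 9 months. Of the 11 later lungs, 10 lay below the lowest of the earlier 12, and the log2 fold change was -0.67 (SE 0.15, adjusted p 0.00138). In air Errfi1 fell by 0.52 (SE 0.15, adjusted p 0.00563). Tsc22d3 went from 83.4, 171 and 365 CPM to 70.7, 117 and 171 CPM in air (log2 fold change -0.64, SE 0.19, adjusted p 0.00626) and fell by 0.78 in silica (SE 0.19, adjusted p 0.00334). Ddit4 fell in silica, from 15.6, 19.5 and 34.3 CPM to 10.4, 13.4 and 19.1 CPM (log2 fold change -0.59, SE 0.17, adjusted p 0.0140), with 8 of 11 lungs below the earlier lowest. In air its value was -0.23 (SE 0.17, adjusted p 0.312). Fkbp5 did not pass in either exposure (-0.16 in air, SE 0.22, and -0.42 in silica, SE 0.22), and Pdk4 did not either (-0.22, SE 0.19, and -0.28, SE 0.20). All these values average the genotypes. In air the Fkbp5 median went from 25.3 to 19.0 CPM in wildtypes and from 13.3 to 20.3 CPM in knockouts. For Pdk4 the medians were 20.7 to 17.4 and 11.7 to 16.3 CPM. Tsc22d3 (244 to 146 and 132 to 115 CPM) and Errfi1 (244 to 159 and 165 to 144 CPM) fell in both. Whether the genotypes differed here was not tested.

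Sgk1 moved the other way. In air it was 111, 127 and 143 CPM at 3 months and 127, 140 and 295 CPM at 9 months, with none of the 11 later lungs below the 3-month median (log2 fold change 0.43, SE 0.10, adjusted p 5.47e-04). In silica it was 0.11 (SE 0.10, adjusted p 0.589). This value rested on the libraries that stand apart: the 2 highest, 287 and 295 CPM, were replicate 5 of wildtype air and replicate 4 of knockout air. Without the 5 such libraries Sgk1 was 0.13 in air (adjusted p 0.144) and 0.18 in silica (adjusted p 0.0250). Errfi1 in air was then -0.38 (adjusted p 0.0878), while Zbtb16 (-1.26, adjusted p 0.00365), Klf9 (-0.46, adjusted p 5.75e-04) and Tsc22d3 (-0.54, adjusted p 0.0407) still passed in air. With voom's sample quality weights Tsc22d3 in air was -0.47 (adjusted p 0.0668). In silica the 5 members that fell all passed without them. The shares of all genes called were then 18.6% in air and 15.5% in silica.

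Other cell types also shifted between 3 and 9 months. Endothelial markers fell in air for 5 of 6, and their summed level was 2617 to 2949 CPM in the 12 air-exposed lungs at 3 months and 1197 to 2297 CPM in the 11 at 9 months (1796 to 2297 CPM without the libraries that stand apart). Recruited macrophage markers rose in air for 6 of 6, from 109 to 145 CPM at 3 months to 185 to 1686 CPM at 9 months (185 to 406 CPM without those libraries), with Gpnmb at 2.49 (SE 0.26, adjusted p 4.18e-11). Neutrophil markers rose in air for 6 of 6. In silica 5 of 6 endothelial markers fell, and 2 of 6 recruited macrophage and 1 of 6 neutrophil markers rose. With the libraries that stand apart left out, 5 of 6 endothelial markers fell in each exposure. Recruited macrophage markers then rose for 5 of 6 in air and 4 of 6 in silica, and neutrophil markers for 4 of 6 and 1 of 6. No marker of the endothelial, recruited macrophage and neutrophil lists was at 0 throughout a group. Summed levels of other lists moved too in air, without the libraries that stand apart. Fibroblast markers were at 1631 to 2232 CPM at 3 months and 1243 to 1571 CPM at 9 months. Alveolar macrophage markers were at 554 to 714 and 927 to 1397 CPM. Most of that sum came from Chil3. With all libraries, wildtype medians were 429 CPM for Chil3 and 590 CPM for the list at 3 months, and 758 and 994 CPM at 9 months. Knockout medians were 418 and 587 CPM, then 1028 and 1339 CPM. B cell markers, with overlap, were at 54.5 to 124 and 102 to 333 CPM. Alveolar type 2 cell markers overlapped, at 11266 to 13390 and 11083 to 13641 CPM. The part of these shifts in the fall of the members was not tested.

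**Figure D3:**
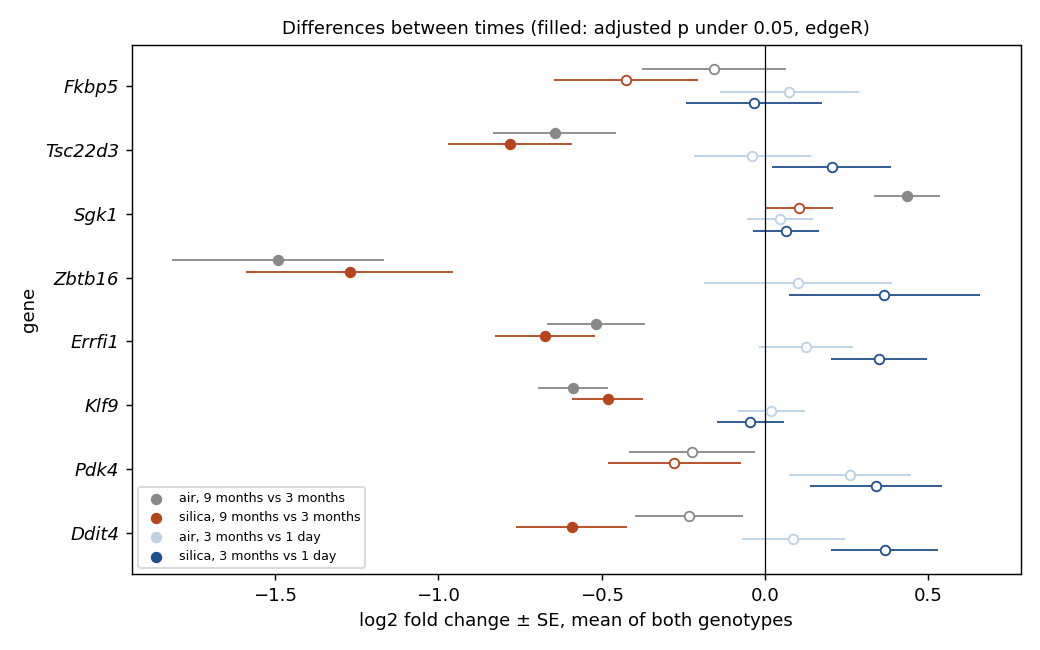
Log2 fold change ± SE (horizontal axis) of each gene between times, averaged over both genotypes, for air and silica lungs; filled points passed an adjusted p of 0.05. Zbtb16, Tsc22d3, Errfi1 and Klf9 lie left of 0 and filled for 9 against 3 months in both exposures, and Sgk1 in air lies right of 0.

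Mice of the same group differed widely in these genes, which sets what the comparisons above could detect. Within groups at 1 day the standard deviation on the log2 scale was 1.07 for Zbtb16, and 0.0391% of the 10218 genes of at least 10 CPM spread more widely. It was 0.66 for Fkbp5, 0.60 for Tsc22d3, 0.57 for Ddit4, 0.51 for Pdk4, 0.50 for Errfi1 and 0.33 for Klf9, against a median of 0.21 over all genes. Sgk1 was among the steadier genes, at 0.12. At 3 months the values were 0.87 for Zbtb16, 0.57 for Fkbp5 and 0.53 for Tsc22d3, and at 9 months 0.47, 0.22 and 0.26 for the same 3. Pdk4 changed less, from 0.51 at 1 day to 0.39 at 9 months, and Sgk1 was at 0.34 at 9 months. At 9 months Sgk1 was at 0.13 without the libraries that stand apart, Zbtb16 at 0.33, Tsc22d3 at 0.21, Fkbp5 at 0.22, Klf9 at 0.11 and Pdk4 at 0.41, against a median of 0.19 over all genes. Nr3c1, the receptor gene, spread by 0.13, 0.09 and 0.13 at the 3 times. Over the 24 lungs at 1 day Zbtb16 differed 11.6-fold between the highest and lowest mouse, and over the 22 at 9 months 4.05-fold. These spreads are given as a description and were not tested between times. They include the sampling noise of reads, which is larger at low counts such as those of Fkbp5, Pdk4 and Ddit4. The genes behind the median were not matched to the members on level.

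**Figure D4:**
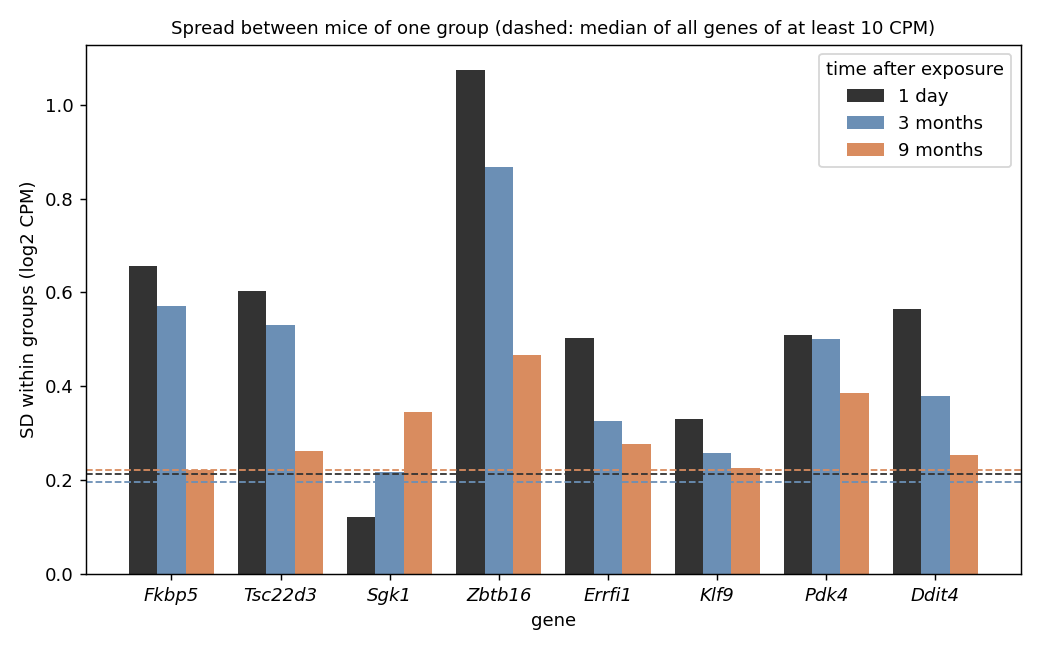
Standard deviation between mice of one group (log2 CPM, vertical axis) for each gene at each time, with the median over all genes of at least 10 CPM as dashed lines. The bars of 7 genes shrink from 1 day to 9 months, from 1.07 to 0.47 for Zbtb16, and the bar of Sgk1 goes from 0.12 to 0.34, a height set by the libraries that stand apart (0.13 without them).

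A mouse high in one of these genes tended to be high in the others. After subtracting each group's mean, the 28 pairs of genes were correlated across the 70 mice, with permutation p-values from 100000 shuffles within groups, adjusted over the 28 pairs. Of the 21 pairs without Sgk1, 20 were positive and passed, with a median Pearson r of 0.61. Among the other 7 members, r of at least 0.5 was reached by 5 for Fkbp5, 6 for Tsc22d3 and 5 for Zbtb16. Over 12003 genes of at least 5 CPM the shares were 0.733%, 1.26% and 1.57%. The median r over those genes was -0.001, -0.004 and 0.002. These shares were taken over all times together. Tsc22d3 and Zbtb16 had r 0.89 (Spearman rho 0.89) and Tsc22d3 and Errfi1 r 0.87 (rho 0.88). Both had a permutation p of 1e-05, the smallest these shuffles can give (adjusted 2.33e-05), and r was 0.87 and 0.88 without the 2 mice farthest from the median. Zbtb16 and Klf9 had r 0.81 (rho 0.81), and Fkbp5 and Zbtb16 r 0.79 (rho 0.80), both with the same permutation p. The exception was Fkbp5 with Ddit4, at r 0.23 (permutation p 0.133, adjusted 0.162), where Spearman's rho was 0.42 (permutation p 0.00133, adjusted 0.00186). Without the 2 mice farthest from the Fkbp5 median, r for this pair was 0.42, so the low r rested on few mice.

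Some individual lungs show this directly. In silica-exposed wildtypes at 1 day, replicate 2 was the highest for 6 of the 8 genes and replicate 3 the lowest for 6. In silica-exposed knockouts at 1 day, replicate 4 was the highest for 6. These mice differed in several of the genes together, as did replicates 4 and 5 of the air-exposed wildtypes at 3 months. Other lungs were mixed. Replicate 3 of the air-exposed knockouts at 1 day was the highest for 4 genes and the lowest for Ddit4. Replicate 2 of the silica-exposed knockouts at 9 months was the highest for Sgk1 and Ddit4 and the lowest for 4 genes.

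The relation was seen at 1 day, where 18 of 28 pairs passed as positive, and at 3 months, where 20 did. At 9 months 4 pairs passed as positive and 2 as negative. Among the 9-month lungs Zbtb16 and Errfi1 kept r 0.85, Tsc22d3 and Errfi1 0.80 and Zbtb16 and Klf9 0.75, while the median of the 21 pairs without Sgk1 was 0.22, against 0.72 at 1 day and 0.70 at 3 months. Ddit4 had r -0.30 with Zbtb16 and -0.26 with Errfi1 at 9 months. Whether the correlations differ between times was not tested. The 9-month values include the libraries that stand apart and were not repeated without them. Of those, wildtype air replicate 5 and knockout air replicate 4 were the highest of their groups for Sgk1. Both were also the lowest of their groups for Zbtb16, Klf9, Errfi1 and Tsc22d3.

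Sgk1 did not follow the others. Its 7 correlations lay between -0.33 with Klf9 (rho -0.10; permutation p 0.0219, adjusted 0.0292) and 0.17 with Fkbp5 (rho 0.20; permutation p 0.0831, adjusted 0.106). They rested on few libraries. Without the 5 that stand apart, all 7 were positive, between 0.16 with Klf9 and 0.36 with Tsc22d3, and 25 of 28 pairs passed as positive. Chil3 had r 0.77 with Sgk1 (rho 0.55, permutation p 7.00e-05, adjusted 6.40e-04 over 64 relations), and r 0.24 without those libraries. Chil3 with Fkbp5, Tsc22d3 and Zbtb16 had r 0.11, -0.07 and -0.13 over all mice, and 0.33, 0.37 and 0.29 without them. At 1 day alone Chil3 had r 0.77, 0.73 and 0.64 with the same genes, and 0.27 with Sgk1. Among 12003 genes of at least 5 CPM the nearest to Sgk1 were Ctsb (r 0.80), Chil3, Ctsl, Ccl6 and Ctsd. Of these, Ctsb, Ctsl and Ctsd are lysosomal proteases. This ranking included the libraries that stand apart and was not repeated without them. The nearest genes to Fkbp5 were Glul (r 0.85), a glutamine synthetase, Zbtb16 (0.79), Sult1a1 (0.79), Xdh (0.78) and Rgcc (0.77), all over the same 70 mice.

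**Figure D5:**
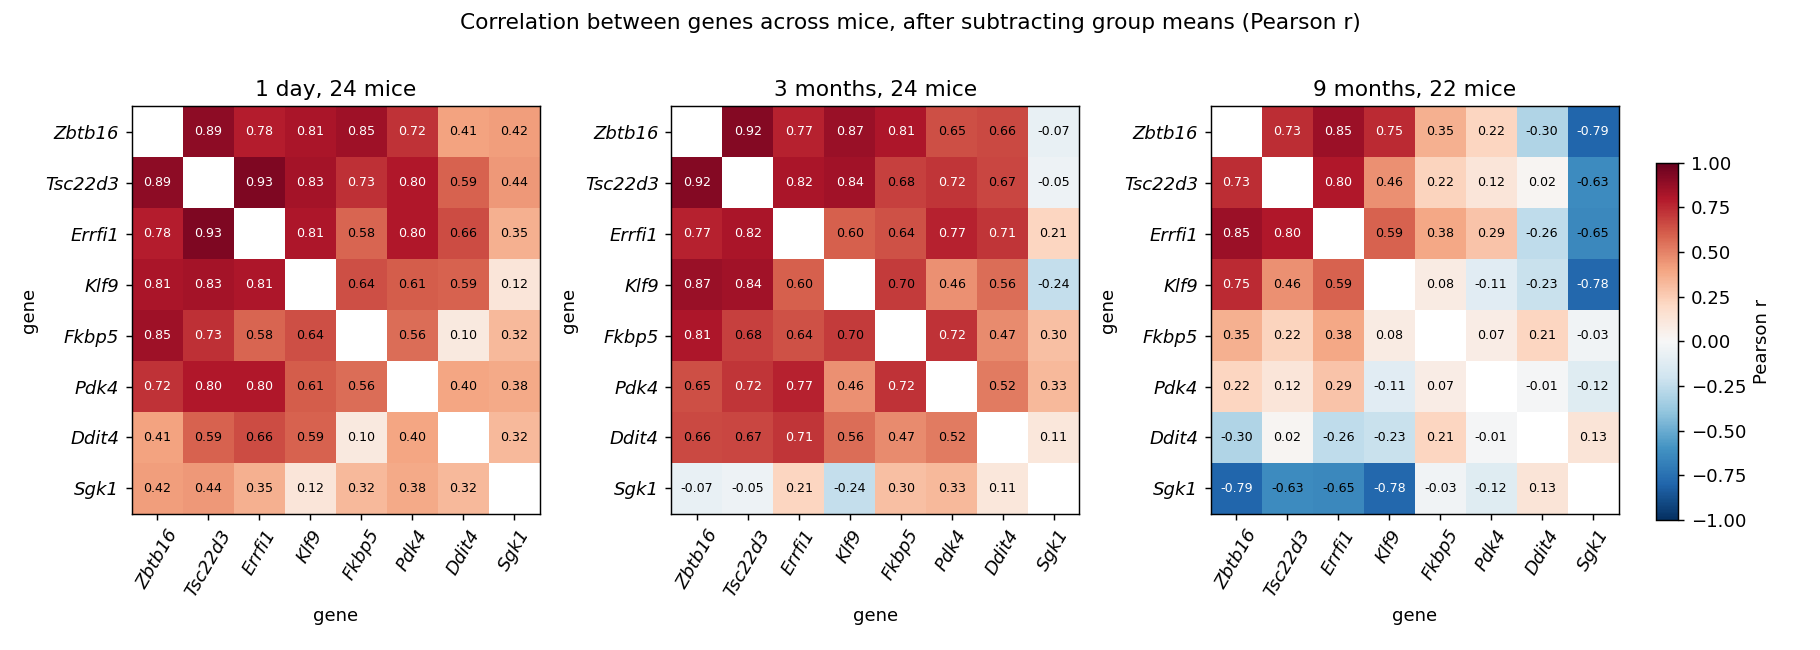
Pearson r between each pair of genes across mice, after subtracting group means, in 1 panel for each time (both axes list the genes; red is positive and blue negative). Most cells without Sgk1 are red at 1 day and 3 months, with a median of 0.72 and 0.70, and at 9 months the row of Sgk1 is blue with Zbtb16 (-0.79) and Klf9 (-0.78). The 9-month panel includes the libraries that stand apart and was not repeated without them.

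The members were also set beside genes of the daily clock, the receptor and possible confounders, 64 relations in all, chosen after seeing the data. Per1 tracked 7 of the 8 members: r was 0.90 with Errfi1 (rho 0.91), 0.85 with Tsc22d3 (rho 0.86), 0.79 with Zbtb16 (rho 0.82) and 0.72 with Klf9 (rho 0.72), each with permutation p 1e-05 (adjusted 1.07e-04). It was 0.56 with Fkbp5, 0.54 with Pdk4 and 0.45 with Ddit4 (adjusted 0.00427), and -0.12 with Sgk1 (adjusted 0.424). Within times Per1 and Errfi1 had r 0.93 at 1 day, 0.87 at 3 months and 0.86 at 9 months. Per1 is both a clock gene and a direct target of the receptor, so its relation does not separate the clock from the hormone.

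Arntl, the clock activator whose level runs opposite to Per1 over the day, was negative with Zbtb16 (r -0.46, rho -0.49, adjusted permutation p 0.00427), Klf9 (-0.41, rho -0.39), Tsc22d3 (-0.39, rho -0.42) and Fkbp5 (-0.38, rho -0.41). Dbp, a clock output gene, was positive with Klf9 (r 0.43, rho 0.34, adjusted permutation p 0.00467) and Zbtb16 (r 0.41, rho 0.41, adjusted 0.00890). Dbp itself ran from 2.12 to 63.2 CPM over the 24 lungs at 3 months. The part that the hour of collection plays in the spread of the members was not tested. Fos, an early response gene, gave no relation that passed with any member, and Nr3c1 gave 1, with Sgk1 (r -0.44, rho -0.32, adjusted permutation p 0.0166), which was -0.14 without the libraries that stand apart. No member correlated past the threshold with library total. The summed heart muscle markers had r 0.34 with Tsc22d3 (rho 0.24, adjusted permutation p 0.0342) and 0.33 with Zbtb16 (rho 0.22, adjusted permutation p 0.0181), and -0.46 with Sgk1 (rho -0.19, adjusted permutation p 0.0120). Without the libraries that stand apart these were 0.13, 0.16 and -0.09.

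The rest of the pathway was read from lists of named genes. Of the receptor, its steroid enzymes, chaperones and coregulators (14 of 15 tested), none passed for silica in wildtype lungs at any time or in knockout lungs at 1 day or 9 months. In knockouts at 3 months 1 rose, the chaperone gene Hspa8 (0.63, SE 0.14, adjusted p 0.00733). Nr3c1 was 0.09 for silica in wildtypes at 1 day (SE 0.07, adjusted p 0.618). From 3 to 9 months in air, where 29.2% of all genes were called, Nr3c1 fell by 0.19 (SE 0.05, adjusted p 0.00266) and Ncoa2, a coactivator, by 0.21 (SE 0.05, adjusted p 2.69e-04). Hsd11b1, which regenerates active hormone inside cells, did not pass there (-0.07, SE 0.08, adjusted p 0.558).

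Of 31 other genes that glucocorticoids induce, 28 were tested at 1 day. In wildtypes 2 rose with silica, Nfkbia (0.50, SE 0.12, adjusted p 0.0197), the inhibitor of NF-kappaB, and Anxa1 (0.32, SE 0.08, adjusted p 0.0348), an anti-inflammatory phospholipid-binding protein, and 1 fell, Cdkn1c (-0.48, SE 0.13, adjusted p 0.0453). The same 2 rose in knockouts and none fell. Of the inflammatory genes that glucocorticoids repress, 5 of 8 tested rose with silica at 1 day in each genotype, with list medians of 0.86 and 0.87 against 0.00 over all genes. The neutrophil attractant Cxcl1 rose by 3.70 in wildtypes (SE 0.27, adjusted p 8.64e-12) and by 4.82 in knockouts (SE 0.34, adjusted p 3.61e-12). Neutrophil markers summed to between 60.1 and 86.3 CPM in air-exposed and between 87.6 and 133 CPM in silica-exposed wildtypes at 1 day, and 2 of 5 tested rose. In knockouts they summed to between 75.1 and 117 CPM and between 74.6 and 185 CPM, and 0 of 5 passed. Their part in the rise of the inflammatory genes, like that of the recruited macrophages, was not tested. At 3 months 3 of 7 inflammatory genes rose in each genotype. At 9 months 0 of 7 did, and without the libraries that stand apart 2 of 7 rose in wildtypes and 3 of 7 in knockouts. In that fit 211 of 12839 genes were called in wildtypes and 218 of 12839 in knockouts. Icam1, an adhesion molecule for leukocytes, rose by 0.56 in wildtypes at 1 day (SE 0.09, adjusted p 1.07e-04). In the comparison of genotypes in air at 3 months, 1 of 27 other induced genes passed, Foxo3, which fell (-0.54, SE 0.11, adjusted p 0.0443).

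From 3 to 9 months in air, 5 of the 28 other induced genes rose and 11 fell, beside the 15.7% of all genes that rose and 13.5% that fell, with Anxa1 at 0.44 (SE 0.07, adjusted p 1.96e-07), the metallothionein gene Mt2 at 1.47 (SE 0.32, adjusted p 2.21e-04) and Fam107a at -0.88 (SE 0.21, adjusted p 5.62e-04). In silica 1 rose and 7 fell, beside 5.46% and 6.17% of all genes, with Cebpd at -0.85 (SE 0.18, adjusted p 4.70e-04), Dusp1 at -0.89 (SE 0.20, adjusted p 0.00107) and Per1 at -1.04 (SE 0.25, adjusted p 0.00228). Of the 16 clock genes 4 rose and 9 fell in air, where 29.2% of all genes were called, and 1, Per1, fell in silica, where 11.6% were. Leaving out the libraries that stand apart, 1 clock gene rose and 6 fell in air and 2 fell in silica, and of 29 other induced genes 3 rose and 9 fell in air and 1 rose and 10 fell in silica. Over all genes, 2476 of 13282 were called in air and 2057 of 13282 in silica in that fit. The values that follow are from the fit with every library. In air Nr1d1, a clock repressor, had the smallest adjusted p at -1.65 (SE 0.26, adjusted p 9.09e-07). Per1 was -0.90 in air (SE 0.24, adjusted p 0.00291). Per1 stands in both lists. Of 11 immediate early genes, which tissue handling can induce, 1 rose and 5 fell in air and 7 fell in silica. The part that clock phase, handling or hormone level plays in the fall of the members was not tested.

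Across mice, 12 of 28 other induced genes had r of at least 0.5 with Tsc22d3, against 151 of 12003 genes (1.26%), and their median r was 0.48 against 0.00 over all genes. For Fkbp5 it was 8 of 28, against 0.733% of all genes. The repressed inflammatory genes had a median r of -0.19 with Tsc22d3, and B cell markers -0.58, over 7 and 5 genes. These are given as a description, since genes are not independent replicates. The lists were chosen with earlier results of these data known, so the gap to all genes is not an independent test. Glul, Sult1a1 and Rgcc of the induced list are among the 5 nearest genes to Fkbp5 in these same mice.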

How the data were processed

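Total RNA from lung pieces was depleted of ribosomal RNA and sequenced with a stranded kit, per the labels' protocols. The authors deposited 1 table of counts, whole numbers of reads per gene. Per the submitters' processing notes the tools were HISAT2 2.1.0, HTSeq 0.11.2, SAMtools 1.8, Cufflinks, Trimmomatic 0.35 and bcl2fastq 2.19, with mouse build mm10. Their order, the annotation and the strand setting are not given in the sources used here. Of 24439 deposited rows, 16 that repeated another were dropped, and 24423 were used. Lars2 took 8.33% of all counts. No 2 libraries of a group differed by as little as sampling noise.

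Samples were grouped by genotype, exposure and time in the labels. Genes were filtered with filterByExpr, scaled by TMM and tested with edgeR's quasi-likelihood test (edgeR 4.0.16, R 4.3.3), with Benjamini-Hochberg adjustment over all genes tested. Each time was fitted with its 4 groups, and all 12 groups together for time comparisons. A gene was called at an adjusted p under 0.05. Standard errors were derived from the log2 fold change and F statistic, and are approximate. Levels are CPM, counts scaled to library size and TMM factor. Correlations across mice used log2 CPM with a prior count of 2, less group means (scipy 1.17.1, numpy 2.4.6, pandas 2.3.3). Both scripts were tested on simulated data. DESeq2 1.42.0, voom (limma 3.58.1), other filters and scalings, and leaving out each library were tried as alternatives.

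The text names each member in every comparison and, from each other list, up to 3 genes of smallest adjusted p among those called. It also names the 5 genes most correlated with Fkbp5 among those of at least 5 CPM on average. Per1, Dbp, Arntl, Fos, Nr3c1, Hsd11b1, Chil3, and the nearest genes to Sgk1, were named after their values were seen. The members and lists were chosen with earlier results of these data known. Intervals cover model error between mice, and reads carry no molecular identifiers.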

Additional observations from a re-analysis of the deposited data

Results flagged for a closer look

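In 10 of the 96 combinations of gene and group, the highest or lowest lung lay far from the others of its group by Dixon's test, which chance flags in about 1 group in 20. Fkbp5 was high in knockout air replicate 3 at 1 day, at 60.3 CPM, in the library with the fewest counts of all. Sgk1 was high in 2 air-exposed lungs at 9 months, wildtype replicate 5 at 287 CPM and knockout replicate 4 at 295 CPM. Those lungs also held Chil3 at 7844 and 6432 CPM. Klf9 was high in wildtype silica replicate 2 at 3 months (211 CPM). It was low in knockout silica replicate 3 at 3 months (93.9 CPM) and in wildtype air replicate 5 at 9 months (74.4 CPM), which both belong to the libraries that stand apart.

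Pdk4 was low in wildtype air replicate 3 at 1 day (7.08 CPM), and high at 3 months in knockout air replicate 4 (28.5 CPM) and knockout silica replicate 2 (27.6 CPM). Ddit4 was high in knockout silica replicate 6 at 3 months (28.7 CPM).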

How the results depend on the processing

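No paired analysis was possible because the labels give animal numbers and no replicate number shared between groups. Of 7992 values of single members under an alternative, 7973 kept their side of the threshold, 3 lost a call, 16 gained one and 0 reversed a called value, while 216 uncalled values changed sign. For knockout against wildtype in air at 3 months, where no member was called, 1 was called with no filter on low counts (Fkbp5, -1.21, adjusted p 0.0464; 0.274% of all genes), 1 with voom's sample quality weights (Klf9, -0.43, adjusted p 0.0408; 0.854%) and 3 without the libraries that stand apart (0.89%), and leaving out single libraries gave 0 to 3. For silica against air in wildtypes at 9 months, 1 was called without the libraries that stand apart, where calls over all genes went from 3 of 12826 to 211 of 12839. Leaving out those 5 libraries together was an alternative chosen after seeing the data. For 9 against 3 months in air the 5 calls became 3 without those libraries, while calls over all genes went from 3875 of 13252 to 2476 of 13282. In silica the 5 became 6, and calls over all genes went from 1540 to 2057, while leaving out single libraries gave 5 to 5 in both. Silica lungs at 3 months against 1 day gave 0 to 1 calls when single libraries were left out. In the other comparisons leaving out single libraries gave 0 to 0 calls.

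Of the 28 correlations, 20 passed as positive over all mice and 4 at 9 months. Without the libraries that stand apart the sign turned for Sgk1 with Tsc22d3 (0.359), Zbtb16 (0.250), Errfi1 (0.313) and Klf9 (0.165). Sgk1 with Klf9 was 0.118 at 1 day alone. At 9 months alone Ddit4 was -0.297 with Zbtb16, -0.257 with Errfi1, -0.226 with Klf9 and -0.00795 with Pdk4, and Klf9 with Pdk4 was -0.110. The cause was not tested, and each time holds fewer mice. The 9-month values include the libraries that stand apart. Low counts limit Ddit4, Pdk4 and Fkbp5, with as few as 5, 14 and 16 reads in a library.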
